A study of Arabidopsis thaliana with 12 samples.

Results

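Transcripts for the removal of hydrogen peroxide were followed in Arabidopsis thaliana seedlings through 89 genes of the 32833 in the deposited table. The genes were selected on annotation and on summed read count. They were those whose biological process annotation in that table holds the term hydrogen peroxide catabolic process and whose read counts summed to 30 or more over the 12 libraries, whatever their group. With 1 locus left out by the rule, 98 genes carried the term and 9 of them lay below that sum. Just inside the limit were AT1G05250 with 32 counts, PER68 with 47 and PER48 with 53, and just outside it AT3G42570 with 22, PER13 with 19 and PER14 with 13. Of the 89 members, 66 were class III peroxidases (symbols PER), 8 ascorbate peroxidases, 8 peroxiredoxins and 3 catalases, and the other 4 were NTRC, MDAR4, PAP26 and CIL. The label of a mainly class III set matched this make-up. Of the 66 class III peroxidases, 62 were annotated to the extracellular region and 33 to the plant-type cell wall, and all 66 to heme binding.

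Whole seedlings aged 8 days were used, with 3 libraries in each of 4 groups, KC P+, KC P-, phod2 P+ and phod2 P-. KC and phod2 are the genotypes in the sample titles, and the labels neither spell out KC nor state which gene is altered in phod2. The series is titled for work on phosphate, so P+ and P- were taken to mean ample and scarce phosphate, with no concentration stated. In the deposited table WT stands in the column names of the KC P+ libraries, so if WT and KC were different lines, every comparison with KC P+ would include that difference. No allele, transgene or agent beyond these names is given for any group, and the labels do not say how many seedlings were pooled for a library. The design text calls the 3 libraries biological replicates.

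Class III peroxidases are secreted heme enzymes of plant cell walls and vacuoles. They use hydrogen peroxide to join monolignols into lignin or to cross-link wall proteins such as extensins, and they can also produce reactive oxygen species, so they serve both the stiffening and the loosening of walls, in root hairs and in the endodermis among other places. Catalases break down hydrogen peroxide in peroxisomes, where photorespiration produces it, and ascorbate peroxidases and peroxiredoxins remove it in the chloroplast, the cytosol and mitochondria with ascorbate or thiols as reductants.

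Counts summed to 16821084 to 23327960 per library, and the members took 0.922% to 1.04% of them. Levels below are CPM, which are counts scaled by TMM to a common library size, with the SD over 3 libraries, and levels are compared between genes only as FPKM, which also divides by exonic length. A gene was called changed at an adjusted p of at most 0.05 by the quasi-likelihood test of edgeR, adjusted after Benjamini and Hochberg over 20891 genes tested, and a fold change of at least 2. Replicate 2 of phod2 P- stood apart, since its deviations fell with exonic length (Spearman -0.71 across genes, a description in which all genes share a library, against -0.17 to 0.11 in the 9 libraries of the other groups). The other 2 libraries of its group had 0.59 and 0.60, a sign that follows from centring on the group mean. Counts of members called without replicate 2 stand beside those with it. The morning clock gene CCA1 was at 0.325 ± 0.271 CPM in KC P+ and 159 ± 4.29 in KC P-, and at 0.222 ± 0.158 and 144 ± 7.47 in phod2. No harvest time is given, so a difference between P- and P+ in either genotype cannot be told apart from one in time of day.

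Most members that differed between the genotypes were class III peroxidases at lower levels in phod2. In P+, where 30 of the 82 members tested were called in either direction (7.4% of all genes), 28 were lower in phod2, where 5.42% of all genes were, and 2 were higher, where 1.98% were. In P-, where 18 members were called in either direction (4.69% of all genes), 15 members were lower against 2.46% of all genes, and 3 were higher against 2.23%. These counts were 34.1% and 18.3% of the members for lower levels. Class III peroxidases, 60 of the 82 members tested, made up 26 of the 28 members lower in P+ and all 15 lower in P-. By limma on log2(FPKM + 1), a scale that understates low genes, 16 members were lower and 1 higher in P+. Of all 20891 genes, 491 were lower and 136 higher there. Without replicate 2 of phod2 P-, 29 and 15 members were lower in P+ and P-, and 2 and 3 were higher. Of the 21087 genes then tested, 1243 and 554 were lower in P+ and P-, and 455 and 471 were higher.

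Between the conditions, members moved in both directions. In KC, 13 members were higher in P- (10.9% of all genes) and 13 lower (9.6%), each 15.9% of the members. In phod2, 23 members were higher in P- (14.1% of all genes) and 6 lower (10.3%), or 28% and 7.32% of the members. The lower share in phod2 rests on 6 members, and its distance from that of all genes was not tested. By limma on log2(FPKM + 1), 8 members were higher in P- in KC and 13 in phod2. Of all 20891 genes, 1325 and 1726 were higher on that scale. Without replicate 2 of phod2 P- the counts were 16 higher and 13 lower in KC, and 24 higher and 7 lower in phod2. Of the 21087 genes then tested, 2345 were higher and 2059 lower in KC, and 2928 and 1958 in phod2. The median log2 difference between P- and P+ over the members tested was -0.01 in KC and 0.40 in phod2, against 0.01 for all genes in both. Between phod2 and KC it was -0.43 in P+ and -0.10 in P-, against 0.04 and 0.00 for all genes. These medians include replicate 2 of phod2 P-, whose deviations fell with exonic length. The median exonic length was 1375 bases for the members and 1756 for all genes tested. The part of length in the medians was not tested.

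**Figure D1:**
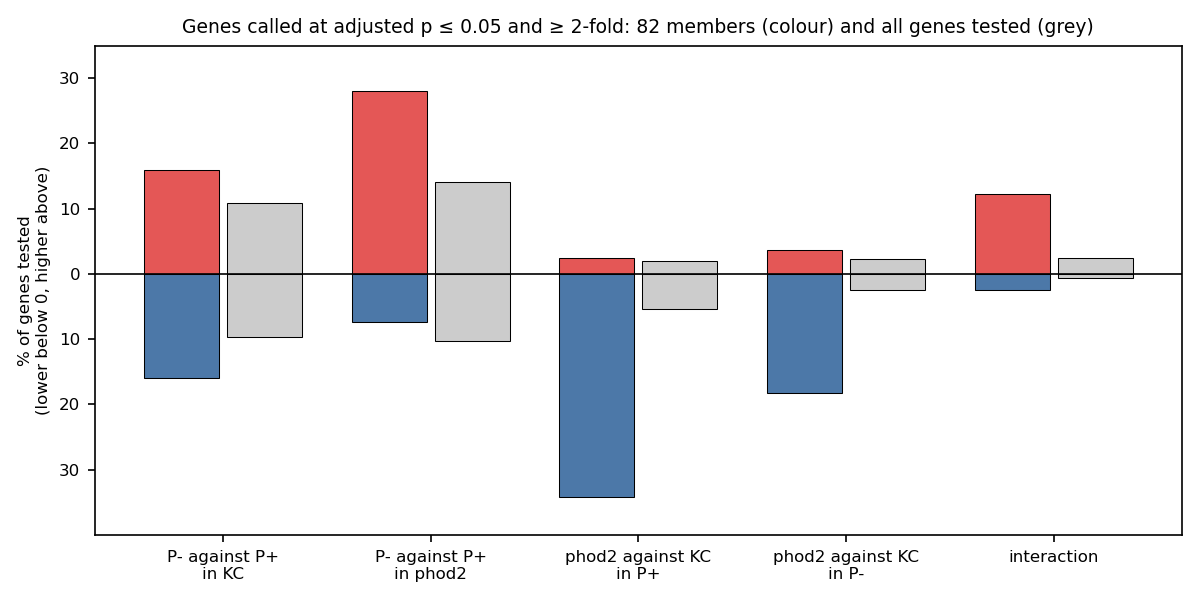
Share of genes called, in percent of those tested, for the 82 members tested (red higher, blue lower) and for all 20891 genes tested (grey), with lower shares drawn below 0. The bars for phod2 against KC in P+ show 34.1% of the members lower against 5.42% of all genes.

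The 3 catalase genes differed between the conditions in both genotypes, CAT2 in one direction and CAT3 and CAT1 in the other. CAT2 (AT4G35090, chromosome 4, 16700312 to 16703504) encodes the main leaf catalase, which acts in photorespiration. It had 335, 326 and 323 CPM in the KC P+ libraries and 2569, 2464 and 2472 in KC P-. In phod2 it had 257, 253 and 266 CPM in P+ and 2305, 2416 and 2294 in P-. All P- libraries lay far above all P+ libraries in both genotypes. CAT2 was thus 7.63-fold higher in P- in KC (log2 2.93 ± 0.0497 SE, adjusted p = 1.23e-14) and 9.04-fold higher in phod2 (3.18 ± 0.0503, adjusted p = 4.66e-15). In 95 bases CAT2 overlaps a gene on the opposite strand, and whether the counting used strand is not given in the sources used here.

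CAT3 (AT1G20620, chromosome 1, 7142972 to 7146540), a catalase gene known for evening-phased expression, had 2015, 2058 and 2064 CPM in KC P+ and 791, 792 and 783 in KC P-. Its phod2 libraries had 2464, 2405 and 2376 CPM in P+ and 986, 1041 and 966 in P-. CAT3 was lower in every P- library than in every P+ library, by 2.59-fold in KC (log2 -1.38 ± 0.0461, adjusted p = 5.6e-12) and 2.42-fold in phod2 (-1.27 ± 0.046, adjusted p = 9.95e-12). CAT1, whose start lies 95 bases beyond the end of CAT3 on the same strand, had 78, 78.3 and 74.9 CPM in KC P+ and 20.1, 21.4 and 21.2 in KC P-. It was 3.69-fold lower in P- in KC and 2.99-fold lower in phod2 (adjusted p = 9.99e-11 and 5.04e-10), again with no overlap of libraries. In phod2 its libraries had 71.0, 72.8 and 75.7 CPM in P+ and 21.1, 26.9 and 25.7 in P-. In FPKM, CAT3 had the higher level of the pair CAT2 and CAT3 in P+ and CAT2 in P-.

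Between genotypes the catalases differed by less than 2-fold. CAT3 was 1.18-fold higher in phod2 in P+ and 1.26-fold in P- (adjusted p = 0.00117 and 9.2e-05). CAT2 was 1.27-fold lower in P+ (adjusted p = 7.2e-05) and its log2 difference of -0.10 ± 0.0461 in P- did not pass (adjusted p = 0.148). The log2 difference of CAT1 was -0.07 ± 0.0766 in P+ and 0.23 ± 0.0851 in P- (adjusted p = 0.518 and 0.0709).

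The promoters of CAT2 and CAT3, the catalase pair that moved in opposite directions, were read as the 250 bases before the annotated start in RefSeq's TAIR10.1, each 5′ to 3′ on the gene's strand. The CAT2 window is chr4:16703505-16703754 on the minus strand and the CAT3 window chr1:7142722-7142971 on the plus strand. Capitals mark the evening element AAATATCT, a sequence that evening-phased genes often carry, which was searched on both strands together with the phosphate-starvation motif GNATATNC and the root hair element.
CAT2: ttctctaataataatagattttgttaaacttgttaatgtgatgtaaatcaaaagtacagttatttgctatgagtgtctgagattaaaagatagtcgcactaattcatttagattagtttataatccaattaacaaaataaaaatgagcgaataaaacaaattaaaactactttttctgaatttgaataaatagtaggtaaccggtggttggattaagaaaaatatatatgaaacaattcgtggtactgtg
CAT3: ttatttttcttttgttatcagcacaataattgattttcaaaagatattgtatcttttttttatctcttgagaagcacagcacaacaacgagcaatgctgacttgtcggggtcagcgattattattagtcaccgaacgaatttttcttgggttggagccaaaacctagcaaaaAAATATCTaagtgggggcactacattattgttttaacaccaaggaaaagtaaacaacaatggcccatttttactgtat
CAT3 held the evening element 78 to 71 bases before its start. The letters of these motifs did not occur in the CAT2 window. Over all 32546 promoters of this length 4.56% held the evening element, and so did 3 of the 89 members (3.37%), CAT3, PER38 and PER48.

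**Figure D2:**
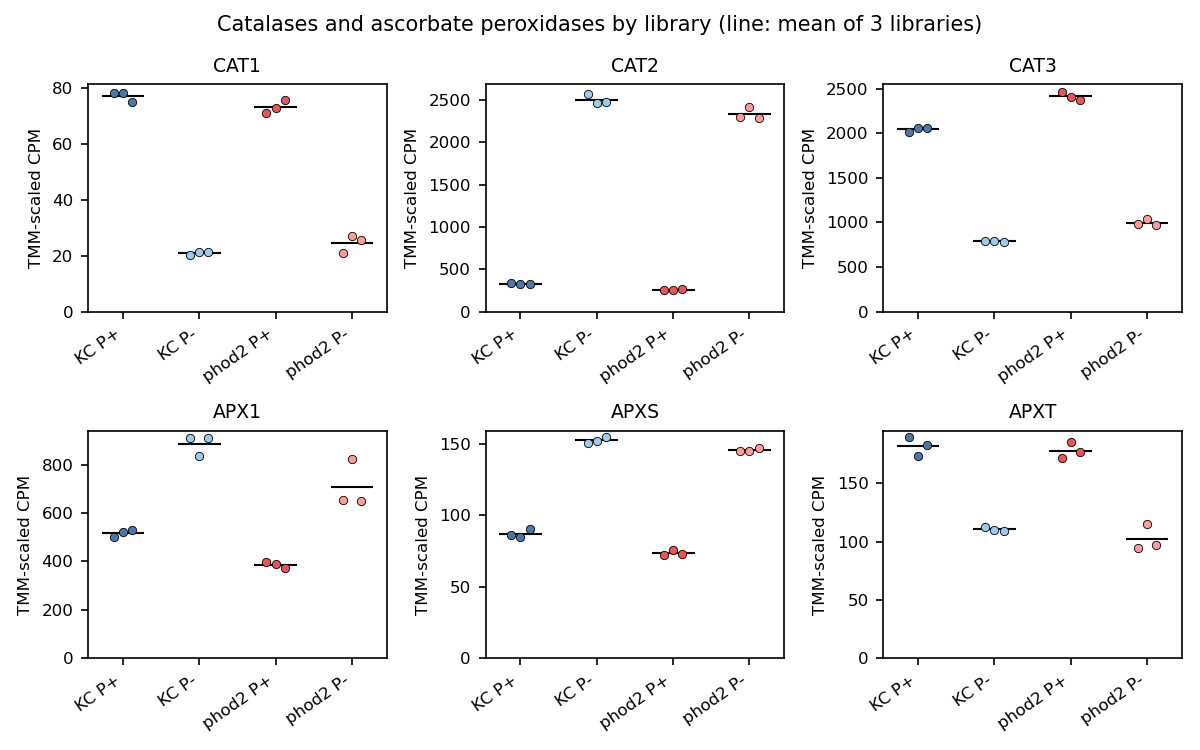
Levels of 3 catalase and 3 ascorbate peroxidase genes in TMM-scaled CPM on a linear axis, 1 point per library with a line at the mean of each group of 3. CAT2 points lie at 2294 or above in P- and at 335 or below in P+, while CAT3 and CAT1 points are lower in P- than in P+.

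The ascorbate peroxidases differed between the conditions more than between the genotypes, mostly by less than 2-fold. The cytosolic APX1 had 501, 521 and 529 CPM in KC P+ and 912, 835 and 908 in KC P-, and 398, 388 and 373 in phod2 P+ and 652, 823 and 651 in phod2 P-. Its P- libraries lay above its P+ libraries in each genotype, by 1.71-fold in KC and 1.84-fold in phod2 (adjusted p = 1.2e-06 and 3.01e-07), under the 2-fold limit. The stromal APXS was 1.75-fold and 1.98-fold higher in P-, and the thylakoid APXT 1.65-fold and 1.74-fold lower, so the chloroplast pair moved in opposite directions. These differences had adjusted p of at most 8.98e-07 but no 2-fold change. The 1 ascorbate peroxidase called among 7 tested, in any comparison, was APX5, 2.37-fold higher in P- in phod2 (2.60, 3.26 and 2.28 CPM in P+, 5.26, 8.87 and 5.38 in P-, adjusted p = 0.000278).

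Among 8 peroxiredoxins, those called were of the type II family and a 1-Cys form. PRXIIB, PRXIIC and PRXIID encode near-identical type II enzymes, with 91.2% to 96.3% identity over their aligned coding bases, so reads may have been split among them and their single values are uncertain. PRXIIC also overlaps GAD2 on the opposite strand by 359 bases. PRXIIC had 9.74, 9.82 and 11.4 CPM in KC P+ and 9.50, 9.58 and 11.6 in KC P-. In phod2 it had 3.23, 2.87 and 3.40 CPM in P+ and 11.6, 14.9 and 11.5 in P-, so the 3 phod2 P+ libraries stood below all the others. It was 3.25-fold lower in phod2 in P+ (log2 -1.70 ± 0.142, adjusted p = 5.9e-07). PRXIID was also lower in phod2 in P+, 2.08-fold, and PRXIIB differed there by a log2 of -0.11 ± 0.0833 (adjusted p = 0.00481 and 0.38).

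AT1G48130, the 1-Cys peroxiredoxin known from dormant seeds, had 1.32, 1.69 and 1.22 CPM in KC P+ and 0.637, 0.942 and 0.779 in KC P-. In phod2 its libraries had 2.29, 2.14 and 2.33 CPM in P+ and 10.4, 13.8 and 10.6 in P-. The phod2 P- libraries stood above those of every other group, 14.6-fold above KC P- (log2 3.87 ± 0.191, adjusted p = 5.6e-09) and 5.1-fold above phod2 P+. The chloroplast peroxiredoxin BAS1 had 825, 842 and 824 CPM in KC P+ and 798, 787 and 791 in KC P-, against 807, 795 and 821 in phod2 P+ and 744, 1047 and 739 in phod2 P-, with the high value in replicate 2, the library with the length trend.

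Among class III peroxidases, 14 genes were lower in phod2 in both conditions, PER4, PER7, PER8, PER20, PER23, PER24, PER27, PER35, PER40, PER45, PER60, PER72, PER73 and AT5G17820. They were 17.1% of the 82 members tested, where 1.79% of all genes tested were lower in both. By group mean, PER4, PER7, PER8, PER35, PER40, PER60, PER73 and AT5G17820 were highest in KC P-. The others, PER20, PER23, PER24, PER27, PER45 and PER72, were highest in KC P+. The summed level of all class III members was 4140.2 to 4149 CPM in KC P+ and 3132 to 3159 in KC P-, against 3019 to 3068 in phod2 P+ and 3091 to 3346 in phod2 P-. PER42 alone gave 1583 to 1608 CPM of the KC P+ sum, had the highest FPKM of all members (mean 834) and stayed under 2-fold in each comparison (at most 1.29-fold). Without PER42 the sums were 2541 to 2566, 1870.0 to 1892, 1419 to 1455 and 1479.7 to 1691 in the same order.

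PER24 (AT2G39040, chromosome 2, 16299242 to 16301245) had the largest fall in phod2 in both conditions among members with more than 3 counts in every group. It had 4.47, 4.75 and 4.97 CPM in KC P+ and 4.03, 5.93 and 3.95 in KC P-, against 0.469, 0.292 and 0.403 in phod2 P+ and 0.408, 0.625 and 0.393 in phod2 P-. Every phod2 library lay below every KC library, 12-fold in P+ (log2 -3.59 ± 0.251, adjusted p = 1.02e-07) and 9.84-fold in P- (-3.30 ± 0.253, adjusted p = 4.61e-07). On log2(FPKM + 1), a scale that understates low genes, limma gave -1.81 and -1.71. PER24 did not pass between conditions in either genotype (log2 -0.03 ± 0.168 in KC and 0.26 ± 0.395 in phod2, adjusted p = 0.903 and 0.569).

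PER27 (AT3G01190, chromosome 3, 67032 to 68665) had 60.8, 56.9 and 61.4 CPM in KC P+ and 46.3, 45.3 and 49.3 in KC P-. In phod2 it had 11, 9.84 and 9.63 CPM in P+ and 15.9, 16.9 and 17.3 in P-. It was 5.88-fold lower in phod2 in P+ and 2.81-fold lower in P- (adjusted p = 2.46e-11 and 4.64e-09), and its libraries did not overlap between genotypes. Its change between conditions differed between genotypes (interaction log2 1.06 ± 0.103, adjusted p = 1.33e-05), with log2 -0.35 in KC and 0.72 in phod2. PER23, which shares 90.6% of its aligned coding bases with its neighbour PER22 and is uncertain for that reason, was 4.36-fold and 2.57-fold lower (adjusted p = 4.02e-11 and 9.35e-09).

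PER40 and AT5G17820 are genes known as targets of UPBEAT1, a regulator of the transition to elongation in roots, with PER39. AT5G17820 had 61.9, 67.0 and 62.0 CPM in KC P+ and 86.7, 84.6 and 81.1 in KC P-, against 17.0, 16.9 and 16.2 in phod2 P+ and 37.2, 39.5 and 38.1 in phod2 P-. The genotypes did not overlap, and the levels differed 3.81-fold in P+ and 2.2-fold in P- (adjusted p = 5.69e-11 and 1.37e-08). PER40 was 5.71-fold lower in phod2 in P+ and 3.22-fold lower in P-, at 0.387 ± 0.129 CPM in phod2 P+ against 2.24 ± 0.0149 in KC P+ (adjusted p = 5.91e-05 and 0.000568). PER39 was not called. It had 18.3 ± 1.35 CPM in KC P+ and 17.9 ± 1.0 in KC P-, against 17.0 ± 0.342 in phod2 P+ and 13.1 ± 1.22 in phod2 P-, with log2 differences between genotypes of -0.10 ± 0.0826 and -0.44 ± 0.0868 (adjusted p = 0.392 and 0.00213).

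PER72 and PER64 belong to the peroxidases of lignification, PER64 at the Casparian strip of the endodermis. PER72 (AT5G66390, chromosome 5, 26515905 to 26517599) had 49.8, 46.9 and 47.8 CPM in KC P+ and 30.3, 26.2 and 28.6 in KC P-. Its phod2 libraries had 12.1, 13.6 and 13.2 CPM in P+ and 13.4, 13.6 and 12.4 in P-, all below the KC libraries. It was 3.71-fold lower in phod2 in P+ and 2.15-fold lower in P- (adjusted p = 3.17e-10 and 1.86e-07). PER64 (AT5G42180, chromosome 5, 16852628 to 16854224) had 25.7, 26.8 and 25.3 CPM in KC P+ and 11.8, 11.7 and 13.2 in KC P-, against 7.03, 7.26 and 7.17 in phod2 P+ and 6.44, 9.74 and 7.40 in phod2 P-. The genotypes did not overlap in either condition. PER64 was 3.62-fold lower in P+ (adjusted p = 2.61e-08), while the 1.57-fold difference in P- stayed under the limit (adjusted p = 0.00146). In 34 bases it overlaps SKP1B on the opposite strand.

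PER7, PER8, PER60 and PER73 were lower in phod2 in both conditions and higher in P- in both genotypes. PER73 is known to act in root hair growth with extensins. PER73 (AT5G67400, chromosome 5, 26894778 to 26896488) had 13.5, 13.3 and 15.8 CPM in KC P+ and 45.0, 44.6 and 46.2 in KC P-. In phod2 it had 4.01, 5.16 and 3.99 CPM in P+ and 11.7, 13.4 and 10.4 in P-. The KC P- libraries stood above all others and the phod2 P+ libraries below all others. It was 3.18-fold higher in P- in KC and 2.69-fold in phod2 (adjusted p = 2.85e-09 and 1.68e-07), and 3.24-fold and 3.83-fold lower in phod2 in P+ and P- (adjusted p = 1.26e-07 and 1.14e-08).

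PER7 had 17.0, 17.7 and 17.3 CPM in KC P+ and 41.1, 41.1 and 40.3 in KC P-, against 5.57, 5.26 and 5.11 in phod2 P+ and 15.5, 17.9 and 14.5 in phod2 P-. PER60 had 3.61, 2.78 and 3.05 CPM in KC P+ and 8.86, 7.81 and 7.61 in KC P-, against 1.09, 1.12 and 1.30 in phod2 P+ and 3.31, 3.50 and 2.64 in phod2 P-. PER8 had 1.11, 1.31 and 1.13 CPM in KC P+ and 5.89, 5.26 and 4.61 in KC P-, against 0.260, 0.390 and 0.493 in phod2 P+ and 2.13, 2.31 and 1.12 in phod2 P-. In all 3 genes KC P- was highest and phod2 P+ lowest, without overlap with the other groups. The rises in P- were 2.36-fold and 3.0-fold for PER7, 2.55-fold and 2.67-fold for PER60, and 4.46-fold and 4.75-fold for PER8 in KC and phod2, with adjusted p of at most 3.17e-05. On log2(FPKM + 1) the rise of PER8 in phod2 was 0.88 and no longer called. Their differences between genotypes ranged from 2.56-fold to 3.26-fold, with adjusted p of at most 0.0035.

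Promoters of these 4 genes and of PER27, 5 of the 14 genes lower in phod2 in both conditions, are given as the 250 bases before the start in TAIR10.1, 5′ to 3′ on the gene's strand, from windows without another annotated gene. The windows are chr1:10991228-10991477, chr5:7426060-7426309 and chr5:26894528-26894777 on the plus strand and chr1:12617033-12617282 and chr3:68666-68915 on the minus strand. Capitals mark the phosphate-starvation motif GNATATNC in PER7 and the root hair element, a longer consensus known from root hair genes, in PER60 and PER27.
PER7: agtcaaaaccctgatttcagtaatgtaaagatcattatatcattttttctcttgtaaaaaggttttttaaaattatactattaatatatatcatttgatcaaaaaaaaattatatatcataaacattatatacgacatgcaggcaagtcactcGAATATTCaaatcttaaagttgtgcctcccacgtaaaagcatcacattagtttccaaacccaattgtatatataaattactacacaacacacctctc
PER8: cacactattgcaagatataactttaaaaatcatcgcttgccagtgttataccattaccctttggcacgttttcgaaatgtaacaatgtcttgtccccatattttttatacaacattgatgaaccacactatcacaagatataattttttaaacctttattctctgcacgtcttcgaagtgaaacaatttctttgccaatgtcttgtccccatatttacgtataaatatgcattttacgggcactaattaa
PER60: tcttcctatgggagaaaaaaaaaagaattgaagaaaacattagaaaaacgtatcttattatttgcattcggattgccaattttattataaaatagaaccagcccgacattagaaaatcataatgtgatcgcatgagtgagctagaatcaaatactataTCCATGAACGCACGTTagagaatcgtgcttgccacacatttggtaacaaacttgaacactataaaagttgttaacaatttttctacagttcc
PER73: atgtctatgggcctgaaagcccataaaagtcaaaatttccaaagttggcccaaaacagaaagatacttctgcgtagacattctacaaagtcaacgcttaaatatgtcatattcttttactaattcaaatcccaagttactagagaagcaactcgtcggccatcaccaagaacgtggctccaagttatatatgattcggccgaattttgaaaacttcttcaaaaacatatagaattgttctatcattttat
PER27: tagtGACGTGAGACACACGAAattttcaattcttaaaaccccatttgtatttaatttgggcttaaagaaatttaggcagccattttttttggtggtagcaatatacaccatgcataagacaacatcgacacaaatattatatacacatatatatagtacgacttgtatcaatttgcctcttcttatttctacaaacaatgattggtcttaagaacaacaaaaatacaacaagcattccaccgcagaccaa
The motif in PER7 lay 97 to 90 bases before the start, the root hair element 92 to 77 bases before it in PER60 and 246 to 230 bases in PER27. GNATATNC occurred in 5.42% of all promoters and in 2 members (2.25%), PER7 and PER67. The root hair element occurred in 0.716% of all promoters and in 4 members (4.49%), PER20, PER27, PER60 and MDAR4, of which PER20, PER27 and PER60 are among the 14. In PER8 and PER73 the letters of none of the 3 motifs were found in this window. A match describes the letters and is no evidence of binding.

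**Figure D3:**
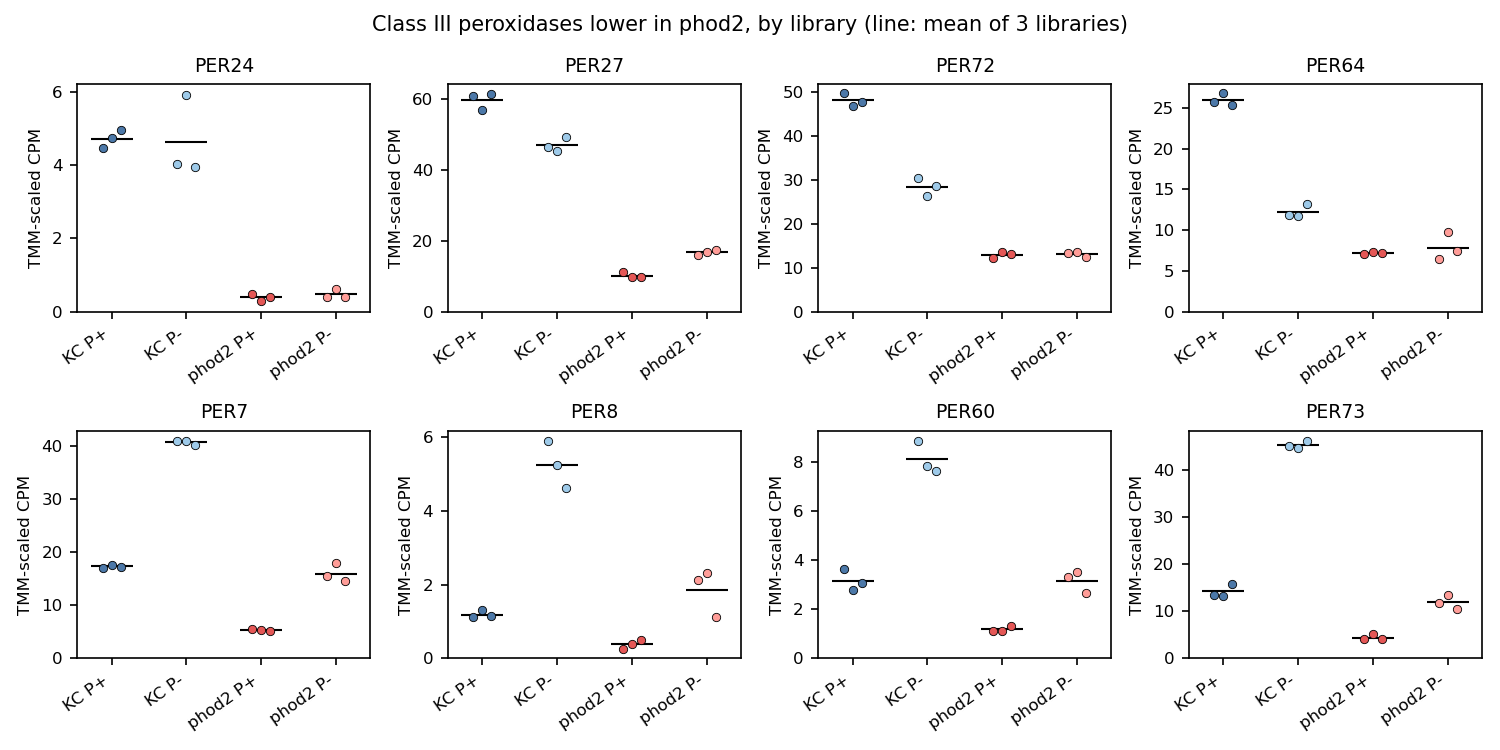
Levels of 8 class III peroxidase genes in TMM-scaled CPM on linear axes, 1 point per library with a line at the group mean. In the upper row phod2 points lie below KC points in both conditions, and in the lower row KC P- is highest and phod2 P+ lowest in each gene.

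Of the 8 root hair markers, 7 were lower in phod2 in P+ and 5 in P-, and 4 were higher in P- in KC and 7 in phod2, the directions of PER7, PER8, PER60 and PER73. Their summed level was 59.1 to 65.8 CPM in KC P+ and 114 to 126 in KC P-, against 17.9 to 19.6 in phod2 P+ and 53.3 to 57.0 in phod2 P-, and each marker had counts in every group. COBL9, a marker of this list, had 7.13 ± 0.459 CPM in KC P+ and 1.81 ± 0.229 in phod2 P+. Of the 8 endodermis markers, 5 were lower in phod2 in P+ and 2 in P-, and 3 were lower in P- in KC, as PER64 was. In phod2 the 8 log2 differences between conditions ran from -0.34 (CASP2, adjusted p = 0.0254) to 0.57 (CASP5, adjusted p = 0.262), all under the 2-fold limit. CASP1 had a called interaction like that of PER64 (1.04 ± 0.129, adjusted p = 0.000124), and RSL2 of the root hair list had one too (1.62 ± 0.38, adjusted p = 0.0125). The sums of the 8 endodermis markers were 109 to 121, 90.8 to 94.3, 64.4 to 69.2 and 65.1 to 76.9 CPM in the same order of groups. CASP1 of the Casparian strip had 32.0 ± 2.48, 14.0 ± 0.749, 7.99 ± 0.645 and 7.21 ± 0.248 CPM. Of the 8 markers of photosynthetic shoot cells, 3 were higher in P- in KC and 2 in phod2, with sums of 32493 to 32521, 47668 to 48206, 33546 to 34049 and 45589 to 59926 CPM. The part of root hair, endodermis and shoot markers in the members' differences was not tested. In whole seedlings, fewer cells of a type and less RNA per cell cannot be told apart.

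PER33 and PER34, neighbours in sequence (90.7% of aligned coding bases, so the single values are uncertain) that are known for the oxidative burst at the cell wall, did not move together between genotypes. PER34 had 295, 290.2 and 293 CPM in KC P+ and 163, 148 and 155 in phod2 P+, 1.88-fold lower (adjusted p = 1.76e-07). PER33 had 20.8, 18.3 and 19.6 CPM in KC P+ and 27.4, 32.4 and 31.8 in phod2 P+, 1.56-fold higher (adjusted p = 0.000198). The libraries did not overlap in either gene, and both differences were under 2-fold. In P- PER33 was 1.38-fold higher in phod2 (adjusted p = 0.0142), and PER34 had a log2 difference of -0.08 ± 0.0671 (adjusted p = 0.398). Between conditions PER33 was lower in P- in both genotypes, 2.72-fold in KC and 3.07-fold in phod2 (adjusted p = 5.85e-08 and 6.79e-09), and PER34 was called in neither.

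PER3, known as RCI3 from cold and potassium-deficiency responses, had 59.2, 59.0 and 63.1 CPM in KC P+ and 32.0, 29.0 and 29.0 in phod2 P+. Its 2.01-fold lower level in phod2 (log2 -1.01 ± 0.0735, adjusted p = 1.52e-07) stood at the fold limit. The call ended without the filter on low counts (-0.99), on log2(FPKM + 1) (-0.97) and log2(FPKM + 0.1) (-0.99), and without KC P+ replicate 3 or phod2 P+ replicate 2 or 3 (-0.98 to -0.99). In P- it was 1.47-fold lower (adjusted p = 9.65e-05). Between conditions it differed by a log2 of -0.37 ± 0.0722 in KC and 0.09 ± 0.0753 in phod2, neither called.

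Other class III genes were higher in P- in both genotypes. PER52, which acts in lignin formation in stems, had 0.0425, 0.109 and 0.0872 CPM in KC P+, 5 counts in all, and 2.34, 4.15 and 3.41 in KC P-. In phod2 it had 0.312, 0.292 and 0.134 CPM in P+ and 3.67, 5.81 and 4.88 in P-. The P- libraries lay far above the P+ libraries, by a fitted 39.5-fold in KC (log2 5.30 ± 0.445, adjusted p = 1.22e-07) and 19.1-fold in phod2 (4.25 ± 0.342, adjusted p = 6.59e-08). On the log2(FPKM + 1) and log2(FPKM + 0.1) scales the log2 changes were 1.71 and 4.01 in KC and 1.93 and 3.66 in phod2. PER49 rose 3.51-fold in KC and 2.37-fold in phod2, from 10.5 ± 0.307 to 36.9 ± 1.21 and from 7.96 ± 0.319 to 18.9 ± 0.813 CPM (adjusted p = 1.88e-11 and 2.12e-09). PER61, PER15 and PER26 rose 2.59-fold, 2.1-fold and 2.39-fold in KC and 2.46-fold, 2.18-fold and 3.75-fold in phod2, with adjusted p of at most 0.00449. The rise of PER61 in KC was 0.60 and not called on log2(FPKM + 1).

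The members lower in P- in both genotypes were CAT3, CAT1, PER21, PER33 and CIL, 6.1% of those tested against 7.5% of all genes. PER21 had 279, 272 and 275 CPM in KC P+ and 89.6, 87.1 and 82 in KC P-, and 92.4, 95 and 93.7 in phod2 P+ and 42, 47.8 and 46.3 in phod2 P-. The KC P+ libraries stood far above the other 9, and the condition difference was 3.19-fold in KC and 2.07-fold in phod2 (adjusted p = 1.58e-11 and 2.61e-09). Without phod2 P- replicate 1 the difference in phod2 was -0.99 on the log2 scale and not called. CIL, a transcription factor gene of the chloroplast import factor CIA2 family, was 5.29-fold and 6.06-fold lower, at 21.4 ± 1.69 and 4.04 ± 0.49 CPM in KC and 23.9 ± 2.24 and 3.97 ± 0.532 in phod2. It shares 423 bases with PER43 on the opposite strand. PER43 was 3.05-fold lower in P- in KC, from 0.914 ± 0.15 to 0.298 ± 0.075 CPM (adjusted p = 0.000741, and a log2 change of -0.46 on log2(FPKM + 1), not called), and reads of the pair may not be separable. PER45 and PER23 were lower in P- in KC, 2.7-fold and 2.14-fold, and under 2-fold in phod2.

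**Figure D4:**
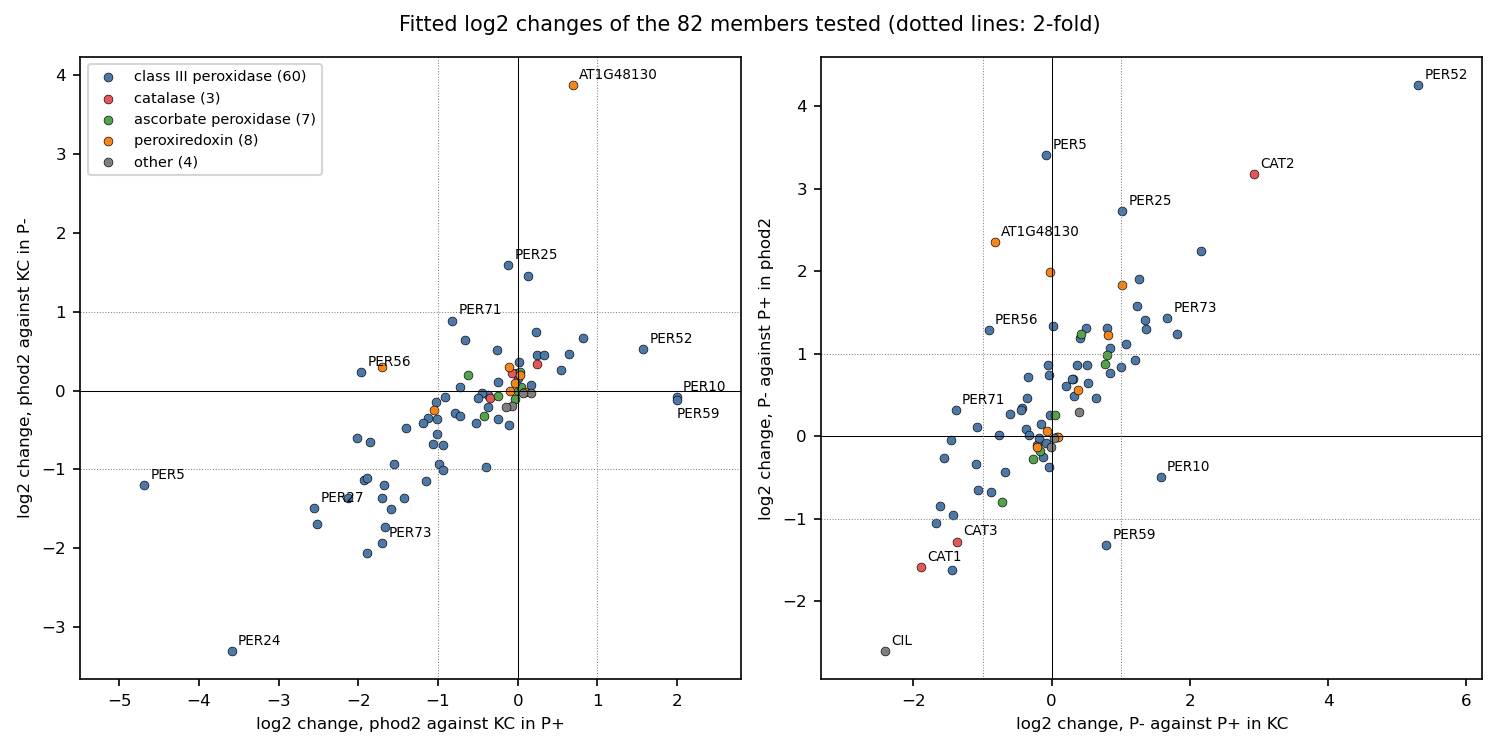
Fitted log2 changes of the 82 members tested, phod2 against KC in P- over P+ (left) and P- against P+ in phod2 over KC (right), coloured by class with dotted lines at 2-fold. Comparisons in a panel share no library. PER24 lies lower left at -3.59 and -3.30, CAT2 upper right at 2.93 and 3.18, and the position of PER5, with 1 count in phod2 P+, depends on the prior count.

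The change between conditions differed between genotypes in 12 members. Of these, 10 (12.2% of the members tested) had a higher log2 change in phod2, against 2.39% of all genes. The other 2 (2.44%) had a lower one, against 0.685%. Without replicate 2 of phod2 P- these member counts were the same, beside 583 and 189 of the 21087 genes then tested. PER27, PER56, PER62, PER64, PER69 and PER71 were at lower levels in all P- libraries than in all P+ libraries in KC, and not in phod2. PER69 had 119, 119 and 121 CPM in KC P+ and 43.4, 42.1 and 44.9 in KC P-, but 30.9, 29.3 and 28.4 in phod2 P+ and 27.7, 33.2 and 25.3 in phod2 P-. Its KC P+ libraries stood alone and the phod2 groups overlapped (interaction log2 1.42 ± 0.119, adjusted p = 4.29e-06). PER71, known from lignification and the restraint of cell growth, had 60.4, 63.0 and 59.0 CPM in KC P+ and 24.1, 22.5 and 22.9 in KC P-, against 34.1, 34.4 and 34.6 in phod2 P+ and 41.7, 45.3 and 41.8 in phod2 P-. Its order of levels was KC P+, phod2 P-, phod2 P+ and KC P-, without overlap (interaction 1.71 ± 0.087, adjusted p = 5.37e-08).

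PER56 had 7.14, 7.04 and 7.72 CPM in KC P+ and 3.08, 4.65 and 3.95 in KC P-, against 2.03, 1.85 and 1.75 in phod2 P+ and 4.44, 4.62 and 4.65 in phod2 P-. The 2 P- groups overlapped, and between the P+ groups the level was 3.9-fold lower in phod2 (adjusted p = 2.31e-07). PER62 fell 2.96-fold in P- in KC, from 8.80 ± 0.513 to 2.97 ± 0.552 CPM, and had 5.54 ± 0.395 and 4.66 ± 0.617 CPM in phod2 (interaction 1.30 ± 0.2, adjusted p = 0.000698). PER64, described above, fell 2.12-fold in KC (adjusted p = 7.78e-07) and had an interaction of 1.2 ± 0.167 (adjusted p = 0.000326).

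PER10 and PER59 were the 2 members higher in phod2 in P+, and both had a lower change in phod2. PER10 had 2.25, 1.31 and 2.62 CPM in KC P+ and 6.05, 5.76 and 7.07 in KC P-, and 7.81, 9.60 and 7.79 in phod2 P+ and 5.39, 7.31 and 5.27 in phod2 P-. KC P+ alone was low, 3.99-fold below phod2 P+ (adjusted p = 3.64e-06), and the P- groups overlapped. PER59 had 0.553, 0.546 and 0.480 CPM in KC P+ and 0.902, 0.942 and 0.899 in KC P-, against 1.46, 2.68 and 2.19 in phod2 P+ and 0.635, 0.812 and 1.12 in phod2 P-. Here phod2 P+ alone was high, 4.0-fold above KC P+ (adjusted p = 0.0001). On log2(FPKM + 1) that difference was 0.88, its fall in P- in phod2 was -0.67 and its interaction -0.93, none of them called.

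PER25, PER65 and AT1G48130 were the 3 members higher in phod2 in P-. PER25 had 1.74, 1.91 and 1.96 CPM in KC P+ and 3.98, 3.55 and 3.89 in KC P-, against 1.77, 1.66 and 1.75 in phod2 P+ and 11.9, 11.7 and 10.7 in phod2 P-. The P+ groups overlapped and phod2 P- stood 3.0-fold above KC P- (log2 1.59 ± 0.107, adjusted p = 1.35e-07). PER65 had 1.19, 1.42 and 1.13 CPM in KC P+ and 1.27, 0.997 and 1.5 in KC P-, against 1.51, 1.36 and 1.21 in phod2 P+ and 2.99, 3.93 and 3.42 in phod2 P-. Only phod2 P- stood apart from the other groups, 2.73-fold above KC P- (adjusted p = 0.000111). The difference was 0.81 on log2(FPKM + 1) and not called.

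**Figure D5:**
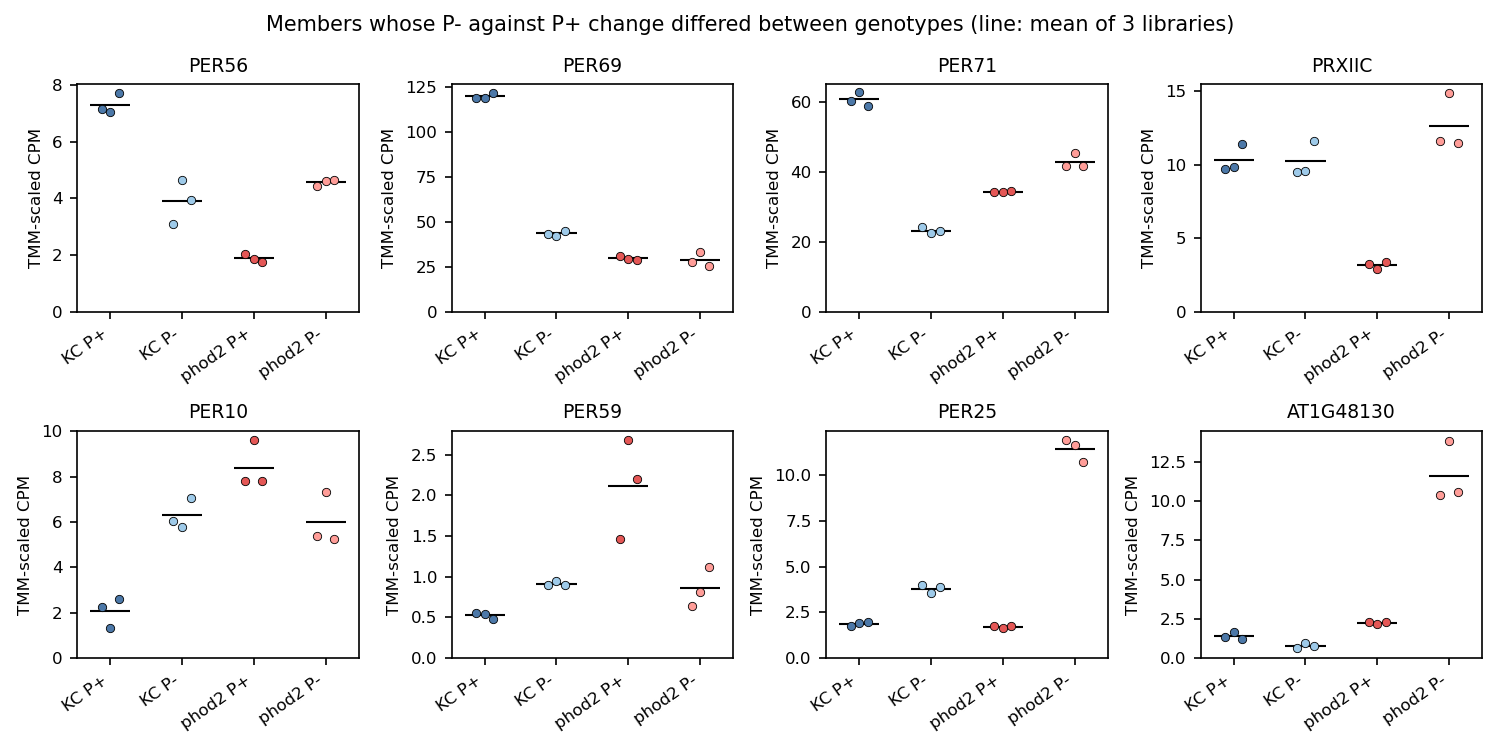
Levels of 8 members with a called interaction in TMM-scaled CPM on linear axes, 1 point per library with a line at the group mean. PER56, PER69 and PER71 are highest in KC P+, PER10 is lowest in KC P+, PER59 is highest in phod2 P+, and PER25 and AT1G48130 are highest in phod2 P-.

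In all, 7 members were too low for the test and 1 more rested on a single count in a group. AT1G05240, a peroxidase known from root hair growth, and AT1G05250 have identical coding sequences over 978 bases, so their counts are uncertain. AT1G05240 had 0.383, 0.273 and 0.349 CPM in KC P+ and 0.584, 0.332 and 0.419 in KC P-, against 0.104, 0.0974 and 0.0896 in phod2 P+ and 0.181, 0.0625 and 0.168 in phod2 P-. The phod2 libraries lay below the KC libraries in both conditions. With a filter at a summed count of 30, which tests every member, its log2 difference in phod2 was -1.74 ± 0.506 in P+ and -1.61 ± 0.468 in P- (edgeR, adjusted p = 0.0194 and 0.0251).

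AT1G05250 had 16 counts in KC P+ against 1 in phod2 P+, a ratio of 15.3 with a 95% counting interval of 2.38 to 643. PER5 had 37 counts in KC P+ against 1 in phod2 P+, a ratio of 35.4 (5.98 to 1440), and 13 in phod2 P- against that 1, a ratio of 14.4 (2.17 to 613). The heat-responsive APX2 had 12 counts in KC P+ and 21 in phod2 P- against 2 in phod2 P+, ratios of 5.75 (1.28 to 52.9) and 11.7 (2.85 to 103). Its P- libraries had 0.902, 0.222 and 0.779 CPM in KC. Under the same filter APX2 was higher in P- in KC (log2 1.74 ± 0.572, adjusted p = 0.0163), and PER58 too (2.22 ± 0.518, adjusted p = 0.00183). PER46, PER48 and PER68 had group means of 0.101 to 0.424 CPM.

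Genes that make hydrogen peroxide or use the same substrates were read from lists of known members. Of 8 NADPH oxidases tested (of 10), 2 were lower in phod2 in each condition, RBOHC and RBOHG. RBOHC, the oxidase of root hairs, had 16.5 ± 0.666 CPM in KC P+ and 29.1 ± 0.135 in KC P-, against 5.14 ± 0.555 in phod2 P+ and 13.2 ± 2.31 in phod2 P-, and was 3.2-fold and 2.2-fold lower in phod2 (adjusted p = 1.34e-07 and 3.24e-06). RBOHB was lower in P- in both genotypes, and RBOHC and RBOHE were higher in P- in phod2. Of 7 superoxide dismutases, which make hydrogen peroxide from superoxide, 1, CSD3, was lower in P- in both genotypes and was the only call. Of 5 genes listed as glycolate oxidases, GOX3 was higher in P- in phod2 and there was no other call.

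Of 12 monolignol synthesis genes, 9 were higher in P- in KC and 9 in phod2, and the interaction of PAL1 was the only other call. PAL1, the entry enzyme of phenylpropanoid synthesis, had 145 ± 1.89, 459 ± 3.65, 78.8 ± 0.878 and 518 ± 48.9 CPM in KC P+, KC P-, phod2 P+ and phod2 P-. Of 4 laccases of lignin, LAC2 and LAC11 were lower in phod2 in P+ and LAC2 in P-, and LAC2 was lower in P- in KC. LAC2 had 2.53 ± 0.384 CPM in KC P+ and 0.414 ± 0.224 in phod2 P+ (6.14-fold, adjusted p = 7.04e-05).

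Of 10 genes of ascorbate and glutathione recycling, 2 were higher in P- in KC and 3 in phod2, with 1, MDAR3, lower in phod2 in P+. GR1, a glutathione reductase gene, rose from 80.2 ± 2.0 to 353 ± 2.49 CPM in KC and from 61.6 ± 1.36 to 376 ± 10.8 in phod2 (4.41-fold and 6.1-fold, adjusted p = 2.12e-13 and 3.96e-14). Of 7 glutathione peroxidase-like genes tested, 1 was higher in P- in KC and 2 in phod2, and GPX7 rose from 0.801 ± 0.143 to 20.2 ± 1.62 CPM in KC and from 0.725 ± 0.0803 to 26.1 ± 2.64 in phod2. The evening clock markers, 3 of 3 lower in P- in both genotypes, summed to 270.0 to 282 CPM in KC P+ and 29.9 to 31.3 in KC P-, and the 3 morning markers to 0.785 to 1.79 and 329.8 to 351. In phod2 the evening sums were 259 to 271 in P+ and 21.7 to 27.4 in P-, and the morning sums 0.781 to 1.52 and 326 to 379.6. In P- 2 of the 3 evening markers were also lower in phod2 than in KC, ELF4 at 1.40 ± 0.407 against 4.06 ± 0.474 CPM and PRR5 at 0.515 ± 0.107 against 1.30 ± 0.351 (adjusted p = 1.89e-05 and 0.00227). The part of the clock markers in the members' differences between conditions, and between genotypes in P-, was not tested.

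Members also lie near each other in the genome. There were 12 pairs of members without another gene between them, holding 23 members, among them PER4 with PER5, PER22 with PER23, PER58 with PER59, and PER69, PER70 and PER71 in a row on chromosome 5. PER4 and PER5, on opposite strands with 3216 bases between them, were both lower in phod2 in P+. PER4 had 1.87, 2.13 and 2.31 CPM in KC P+ and 0.573, 0.633 and 0.493 in phod2 P+, 3.69-fold lower, and was 4.17-fold lower in P- (adjusted p = 4.31e-05 and 1.31e-05). PER69 and PER71 each had a called interaction, given above, but differed within phod2. There PER69 overlapped between conditions (log2 -0.04), and PER71 was higher in every P- library than in every P+ library (0.32, under 2-fold). PER70 was called higher in P- in phod2 alone, a difference between genotypes that did not pass. Of the 89 members, 17 overlap another gene, so their counts may hold reads of the other strand or gene.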

How the data were processed

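RNA-seq was made from whole Arabidopsis seedlings, with 3 libraries in each of 4 groups. The authors deposited raw read counts per gene and FPKM for the 12 libraries in 1 table, per the file headers. Recomputing FPKM from the deposited counts and exonic lengths gave 100% of the values within 0.006. The submitters' processing notes list genome build mm10, a mouse build, while 99.95% of the genes matched had the coordinates of the Arabidopsis annotation. The aligner, the counter and the use of strand are not given in the sources used here.

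Counts were analysed with edgeR 4.0.16 in R 4.3.3, with TMM scaling, filterByExpr with a smallest count of 10 and 4 group means over 12 libraries that shared 1 estimate of the spread. edgeR's quasi-likelihood test was adjusted over 20891 genes by Benjamini-Hochberg. The interaction subtracts the log2 change of KC from that of phod2. The typical variation between replicates beyond counting error was 8.47%. The steps were tested on simulated data. Alternatives were DESeq2 1.42.0, its size factors, limma 3.58.1 on log2(FPKM + 1) and log2(FPKM + 0.1), other filters, fits to the compared groups only, a replicate block, no minimum fold and each library left out. Ratios on 1 to 3 counts have exact intervals that cover counting error only.

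Members and lists were chosen with earlier results of these data known. Named were 16 members with known roles and, in each comparison, up to 8 members called higher and 8 called lower, ranked by fitted change, whose groups did not overlap. Genes of the lists were named where called, and other members were named after their values were seen. Promoters and coding sequences came from RefSeq, TAIR10.1.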

Additional observations from a re-analysis of the deposited data

Results flagged for a closer look

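In 12 members the change between P- and P+ differed between the genotypes, by edgeR's quasi-likelihood test of that difference itself. The difference (phod2 less KC, log2) was 3.18 for AT1G48130, 2.19 for PER56, 2.01 for PRXIIC, 1.71 for PER71, 1.70 for PER25, 1.42 for PER69, 1.32 for PER65, 1.30 for PER62, 1.2 for PER64 and 1.06 for PER27. It was -2.11 for PER59 and -2.08 for PER10. On log2(FPKM + 1) the value was 0.75 for PER65 and -0.93 for PER59, no longer called.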

How the results depend on the processing

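For the genes named, 2311 alternative values kept their direction and side of the limits, 17 lost the call and 8 changed sign. On log2(FPKM + 1), with limma, members called fell to 8 higher in P- in KC (13 with edgeR), 13 higher in P- in phod2 (23), 1 higher and 16 lower in phod2 in P+ (2 and 28) and 1 with a lower interaction (2). Over all genes this scale called 2718, 3370, 627, 432 and 354 genes, against 4292, 5102, 1545, 979 and 643, for P- against P+ in KC and phod2, phod2 against KC in P+ and P-, and the interaction. Without a minimum fold, 59, 62, 51, 44 and 31 members were called in that order (26, 29, 30, 18 and 12), and 13483, 14200, 5878, 4712 and 2501 genes. Leaving out each library in turn gave 12 to 16 members higher and 13 to 14 lower in KC, 23 to 25 and 5 to 7 in phod2, 2 to 2 and 24 to 29 in P+, 3 to 3 and 14 to 15 in P-, and 10 to 11 and 2 to 2 for the interaction. Sign changes were of uncalled values, 7 of them differences between conditions and 1 an interaction. Over single libraries left out, PER39 in KC ran from -0.074 to 0.024, and in phod2 PER64 ran from -0.018 to 0.254, PER69 from -0.111 to 0.036 and PER72 from -0.028 to 0.057. PER72 in phod2 was -0.038 on log2(FPKM + 1) and -0.042 on log2(FPKM + 0.1). The interaction of PER52, -1.05 with edgeR, was 0.21 on log2(FPKM + 1). Its mean FPKM was 0.06 in KC P+ and 0.193 in phod2 P+, both below the 1 added on that scale. The cause of this sign change was not tested. The fitted difference of PER5 in P+ was -6.49 without phod2 P+ replicate 3 and -0.54 on log2(FPKM + 1), since 1 count supports its low group. With the replicate block the counts of members called were 13 and 13, 23 and 6, 2 and 28, 3 and 15, and 10 and 2. Over all genes the block gave 2284 and 2003, 2939 and 2165, 409 and 1120, 460 and 507, and 483 and 134. No pairing by replicate number was seen in the deviations. Their correlations were -0.096 to 0.066 over 18 same-number pairs and -0.108 to 0.125 over the other 36. These correlations cannot show that same-number libraries were grown or prepared apart. Depth limits the 7 members not tested and PER5.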
